A study of Mus musculus with 9 samples.

Results

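The erythroid membrane, heme and iron genes described here are 9 genes named for the red cell lineage: Epor, Alas2, Car1, Car2, Slc4a1, Tfrc, Ermap, Rhd and Ahsp. They were picked by gene symbol, with earlier results of these data known. Of the 24421 symbols in the count table, 8 were members, and Ahsp, which encodes a chaperone of alpha globin, was not analysed here. All 8 had enough counts to be tested, among 13270 tested genes.

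Red cell precursors depend on erythropoietin, whose receptor signals through the kinase JAK2 to the transcription factor STAT5. As they mature, they take up iron bound to transferrin and build heme from it, in a pathway whose first enzyme has an erythroid form. They also assemble a membrane of band 3, Rh proteins and a spectrin skeleton. The transcription factors GATA1 and KLF1 bind promoters and enhancers of many of these genes. Iron uptake through the transferrin receptor is not specific to the lineage and is used by most dividing cells.

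RNA was sequenced from mouse bone marrow cells depleted of lineage-positive cells, which had been grown for 5 days with IL-3, IL-6 and SCF into cells that the labels call myeloid blast-like. Neither the labels nor the series description name erythropoietin among the cytokines. The 9 libraries form 3 groups of 3. The first group, WT vehicle, is C57BL/6 wild-type cells that received vehicle. The second, mutant vehicle, is cells of Tet2-/-Flt3ITD mice that received vehicle; by their label these mice lack Tet2, a DNA demethylase gene, and carry the internal tandem duplication (ITD) of Flt3, a receptor tyrosine kinase. The third, mutant SHP099, is Tet2-/-Flt3ITD cells that received for 24 h SHP099, an allosteric inhibitor of the tyrosine phosphatase SHP2. The mutant cultures came from individual mice according to the series description, and no source used here says whether the 3 WT libraries came from separate animals, so p-values measure the spread between libraries. All groups share the culture, and no treated WT group was analysed here. Cells were not sorted, and in such bulk RNA fewer erythroid cells and less RNA per erythroid cell cannot be told apart.

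Library totals ran from 27242168 to 45810089 counts. Tet2 was at 31.8 to 34.8 CPM (counts scaled to the library total) in the WT libraries and 10.9 to 17.0 CPM in the mutant ones; in mutant vehicle cells it was lower by 1.10 ± 0.09 on the log2 scale (SE, n = 3 per group; adjusted p = 0.00013) and at 46.7% of the WT level. Which exons were deleted is not given in the sources used here, and gene counts do not show the Flt3 duplication. SHP099 replicate 3 stood apart from the other libraries of its group, with a chi-square per degree of freedom of 113 and 116 against them, where all other replicate pairs lay between 11.1 and 25.8. Of 10 neutrophil markers 9 had a row, and they summed to 17584 to 30485 CPM over the 9 libraries. Megakaryocyte markers summed to 1359 to 3792 CPM, and mast cell and basophil markers to 1279 to 2795 CPM. Myeloid markers were thus present, but these sums do not show whether the cells were blast-like.

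Promoter sequences were available in RefSeq for 5 of the 8 members, on GRCm38.p6, and are shown with the letters that GATA factors bind marked, since GATA1 is known to bind near many erythroid genes. Each window holds 300 bases on the strand of the gene and is written 5′ to 3′. Capitals mark a GATA word, defined here as the letters GATA with A or T before them and A or G after them, read on either strand.
Epor, chr9:21963527-21963826, minus strand: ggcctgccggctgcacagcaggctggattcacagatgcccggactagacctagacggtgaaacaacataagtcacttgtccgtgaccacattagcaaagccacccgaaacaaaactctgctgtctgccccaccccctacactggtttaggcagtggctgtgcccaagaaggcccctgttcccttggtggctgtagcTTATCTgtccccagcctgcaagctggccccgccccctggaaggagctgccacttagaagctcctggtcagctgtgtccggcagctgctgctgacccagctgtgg
Alas2, chrX:150547167-150547466, plus strand: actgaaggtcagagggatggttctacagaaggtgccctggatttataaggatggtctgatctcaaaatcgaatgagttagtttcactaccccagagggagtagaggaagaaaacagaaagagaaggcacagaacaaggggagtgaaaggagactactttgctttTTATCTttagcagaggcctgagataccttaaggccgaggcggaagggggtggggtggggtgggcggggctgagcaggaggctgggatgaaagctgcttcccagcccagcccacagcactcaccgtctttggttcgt
Ermap, chr4:119189946-119190245, minus strand: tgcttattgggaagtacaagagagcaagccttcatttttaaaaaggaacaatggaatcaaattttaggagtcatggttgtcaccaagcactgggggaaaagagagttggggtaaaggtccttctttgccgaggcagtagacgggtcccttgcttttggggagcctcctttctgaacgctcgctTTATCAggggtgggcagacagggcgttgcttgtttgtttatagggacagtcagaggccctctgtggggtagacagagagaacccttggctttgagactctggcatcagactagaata
Rhd, chr4:134864286-134864585, plus strand: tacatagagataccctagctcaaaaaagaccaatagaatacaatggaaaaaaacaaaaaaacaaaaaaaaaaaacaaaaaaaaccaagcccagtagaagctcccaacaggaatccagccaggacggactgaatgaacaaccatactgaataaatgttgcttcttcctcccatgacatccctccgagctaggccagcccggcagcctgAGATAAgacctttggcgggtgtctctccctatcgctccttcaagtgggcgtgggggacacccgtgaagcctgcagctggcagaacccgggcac
Tfrc, chr16:32608646-32608945, plus strand: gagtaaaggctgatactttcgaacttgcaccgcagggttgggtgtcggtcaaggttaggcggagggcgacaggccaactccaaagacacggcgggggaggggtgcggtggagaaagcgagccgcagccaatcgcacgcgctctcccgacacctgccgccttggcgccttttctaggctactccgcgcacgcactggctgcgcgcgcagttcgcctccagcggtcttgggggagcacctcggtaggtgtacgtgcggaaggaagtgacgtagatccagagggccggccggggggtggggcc

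The 4 windows of Epor, Alas2, Ermap and Rhd each hold 1 GATA word, which begins 54, 86, 67 and 43 bases before the start of the transcript. The Tfrc window holds none, and neither does the window of its other RefSeq start. Of all 32851 such mouse windows, 29.8% hold at least 1 GATA word. A second word, CCNCNCCC on either strand, of the kind that KLF factors bind, occurs in 49.5% of all windows. It occurs 4 times in Epor, 4 times in Alas2, once in Rhd, not in Ermap, and 5 times in the Tfrc window shown, counting overlapping matches. These matches describe letters in short windows, and no binding was measured.

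Mutant vehicle cells held less RNA of 7 of the 8 members than WT vehicle cells. The decreases ran from 2.51-fold for the erythropoietin receptor gene Epor to 6.46-fold for the band 3 gene Slc4a1, whose size depended on which libraries entered. Tfrc, the transferrin receptor gene, was the exception: it was 1.16-fold higher. The calls of Alas2, Car1 and Slc4a1 were each lost in 3 of the fits that left out 1 library. In SHP099-treated mutant cells 6 of the 7 lower genes were again lower than in WT cells. Without pairing, Tfrc was lower there than in mutant vehicle cells, a call lost in 5 of the 9 fits that left out 1 library. With mutant libraries paired by number and fitted alone, 4 members were higher and 2 lower after SHP099, where 42.8% of all genes were called. Of these members, Car2 was called higher in each such paired fit. The genes of the red cell membrane and the erythroid transcription factors were lower in mutant cells along with the members. Most genes of iron handling and the other carbonic anhydrases were not called. The same holds for all tested genes, of which 31.6% were called between the vehicle groups.

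Between the vehicle groups of both genotypes, 7 members were called lower and 1 higher at an adjusted p under 0.05 (edgeR). Over all tested genes 31.6% were called, 16.9% higher and 14.7% lower. These shares are the background of each list count below in this comparison. The median log2 fold change was -1.77 over the 8 members and 0.02 over all tested genes.

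**Figure D1:**
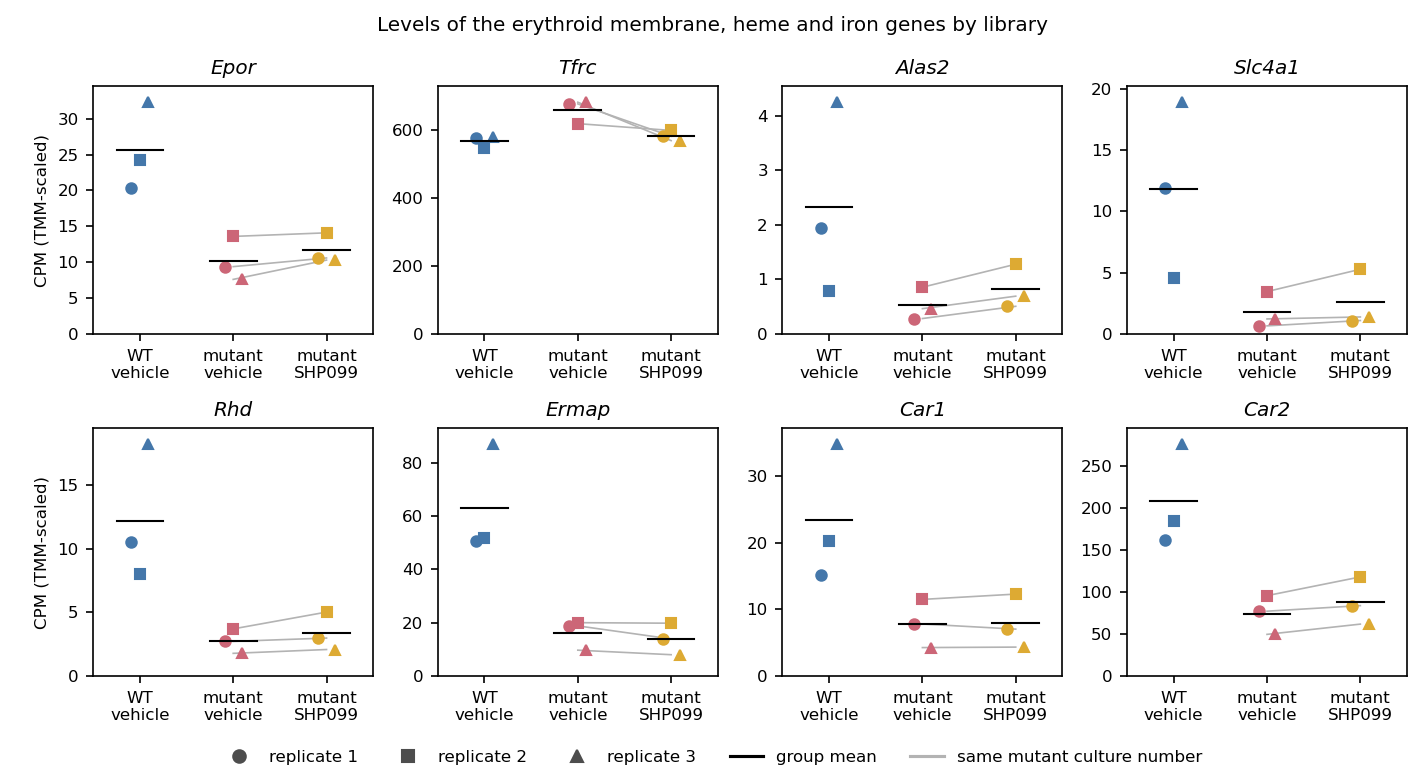
Each panel plots the level of 1 gene in CPM (linear axis from 0) for the 9 libraries, 3 per group; symbols give the replicate number, bars the group means, and grey lines join mutant libraries of the same number. The 3 WT libraries lie above the 3 mutant vehicle libraries for 6 genes, overlap with them for Alas2, and lie below them for Tfrc. How many of all tested genes separate in this way was not counted, here or for the genes below.

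Epor (chr9:21958897-21963506 on GRCm38, minus strand) encodes the receptor for erythropoietin and was the member with the smallest relative decrease. It was measured at 20.4, 24.2 and 32.3 CPM in WT vehicle libraries 1 to 3, at 9.39, 13.6 and 7.61 CPM in mutant vehicle libraries, and at 10.6, 14.1 and 10.3 CPM after SHP099. All 6 mutant libraries lay below the lowest WT library. Epor was lower by 1.33 ± 0.23 on the log2 scale in mutant vehicle cells (log2 fold change -1.33, adjusted p = 0.0027), at 39.7% of the WT level, and this call held in every fit that left out 1 library.

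Genes downstream of the receptor, fixed as a list of 8, did not share this direction. Of the 8, 2 were higher and 2 lower in mutant vehicle cells, with a median log2 fold change of 0.01. Over all tested genes 16.9% were called higher and 14.7% lower. Bcl2l1, which encodes the survival protein BCL-XL, fell by 0.41 ± 0.05 (adjusted p = 0.00088), and the receptor's kinase gene Jak2 fell by 0.24 ± 0.04 (adjusted p = 0.0033), to 176 ± 2.16 CPM (SD, n = 3) from 207 ± 4.0 CPM. Socs2, which encodes a feedback inhibitor of this pathway, rose by 0.40 ± 0.09 (adjusted p = 0.0081). Stat5a was called higher by 0.14 ± 0.04 (adjusted p = 0.035), a call lost in 8 of the 9 fits that left out 1 library and with RLE scaling. These genes serve many cytokine receptors of the myeloid lineage, the IL-3 receptor included.

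Alas2 encodes the erythroid form of 5-aminolevulinate synthase, the first enzyme of heme synthesis, and was the least abundant member. It had 68, 22 and 177 raw counts in the WT libraries, which are 1.94, 0.791 and 4.25 CPM. The mutant vehicle libraries held 9, 36 and 17 counts, or 0.284, 0.858 and 0.465 CPM, and the SHP099 libraries 23, 54 and 27 counts, or 0.508, 1.28 and 0.694 CPM. The groups overlapped, because WT replicate 2 lay below mutant vehicle replicate 2. At these depths the exact Poisson 95% intervals of those 2 libraries, 0.496 to 1.20 and 0.601 to 1.19 CPM, also overlapped; they cover counting error only.

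Alas2 fell by 2.11 ± 0.61 on the log2 scale in mutant vehicle cells (adjusted p = 0.026), to 23.0% of the WT level. Its call was lost when WT replicate 3, mutant vehicle replicate 1 or mutant vehicle replicate 3 was left out, with log2 fold changes of -1.35, -1.83 and -2.02 and adjusted p of 0.11, 0.08 and 0.08 in edgeR. On GRCm38, Alas2 (chrX:150547375-150570638, plus strand) lies wholly inside the span of Apex2 on the opposite strand, and whether strand was used in counting is not given in the sources used here. Apex2, a DNA repair endonuclease gene, was at 12.8 to 13.2 CPM in WT libraries, at 13.6 to 14.1 CPM in mutant vehicle libraries, and was not called (log2 fold change 0.08 ± 0.06, adjusted p = 0.3).

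Almost all of the RNA for this enzymatic step came from the other isoform. Alas1, the form used outside the red cell lineage, exceeded Alas2 per kilobase of transcript by 66.8 to 436 times in WT libraries, 476 to 1283 times in mutant vehicle libraries and 361 to 839 times in SHP099 libraries. The lowest mutant vehicle ratio lay above the highest WT ratio. Alas1 itself averaged 569.5 ± 91.9 CPM (WT) and 727 ± 147 CPM (mutant vehicle) and was not called (log2 fold change 0.35 ± 0.16, adjusted p = 0.13).

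Of the 8 other enzymes of heme synthesis on the fixed list, 5 were lower in mutant vehicle cells and none was higher. Their median log2 fold change was -0.23. Over all tested genes 31.6% were called in either direction and 14.7% lower. Cpox, coproporphyrinogen oxidase, fell by 0.70 ± 0.16 (adjusted p = 0.0089), from 94.3 ± 24.1 to 58.1 ± 6.63 CPM. Urod, an enzyme of the middle of the pathway, fell by 0.35 ± 0.08 (adjusted p = 0.012). Ppox was lower by 0.20 ± 0.05 (log2 fold change -0.20, adjusted p = 0.018), with an adjusted p of 0.052 when WT replicate 1 was left out; without that library 3 enzymes were called. Fech, which inserts the iron, was at a log2 fold change of -0.19 ± 0.08 (adjusted p = 0.1).

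Among 12 genes of heme transport and breakdown, 5 were lower and none higher, with a median of -0.17. The background again was 31.6% called in either direction and 14.7% lower. Blvrb, a biliverdin reductase abundant in red cells, fell by 1.16 ± 0.17 (adjusted p = 0.0013), from 63.6 ± 10.2 to 28.4 ± 6.68 CPM. The transporter genes Abcb6 and Abcb10, which act at mitochondria and other membranes, fell by 0.53 ± 0.08 (adjusted p = 0.0013) and 0.39 ± 0.07 (adjusted p = 0.0026). Hmox1, heme oxygenase 1, fell by 0.50 ± 0.13 (adjusted p = 0.017). That call was lost without WT replicate 1, mutant vehicle replicate 1 or mutant vehicle replicate 3, where its adjusted p reached 0.059; without either of those mutant libraries 3 of the 12 genes were called.

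Slc4a1, Rhd and Ermap, which encode red cell membrane proteins, had with Alas2 the 4 largest relative decreases among the members. Slc4a1 (chr11:102348824-102366203, minus strand) encodes band 3, the chloride and bicarbonate exchanger of the red cell. It was measured at 11.9, 4.60 and 18.9 CPM in WT libraries, 0.664, 3.46 and 1.23 CPM in mutant vehicle libraries, and 1.10, 5.28 and 1.39 CPM after SHP099. The WT and mutant vehicle libraries did not overlap, but SHP099 replicate 2 lay above WT replicate 2. Slc4a1 fell by 2.69 ± 0.74 in mutant vehicle cells (adjusted p = 0.021), to 15.1% of the WT level. Leaving out WT replicate 3, mutant vehicle replicate 1 or mutant vehicle replicate 3 gave -2.20, -2.32 and -2.49 with adjusted p of 0.07, 0.063 and 0.07 in edgeR, so the call was lost there; without mutant vehicle replicate 2 the decrease was larger, at -3.64 (adjusted p = 0.016).

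Rhd (chr4:134864536-134896172, plus strand) encodes the Rh D membrane protein, which in human carries the D blood group antigen. It was at 10.5, 8.02 and 18.2 CPM in WT libraries, 2.72, 3.70 and 1.78 CPM in mutant vehicle libraries, and 2.98, 5.02 and 2.08 CPM after SHP099. All mutant libraries lay below all WT libraries. Rhd fell by 2.16 ± 0.39 (adjusted p = 0.0034), to 22.3% of the WT level.

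Ermap (chr4:119175457-119190011, minus strand) encodes an erythroid membrane protein of the immunoglobulin superfamily, the carrier of the Scianna blood group in human. It was at 50.6, 51.8 and 86.9 CPM in WT libraries, 18.8, 20.0 and 9.69 CPM in mutant vehicle libraries, and 13.9, 19.8 and 7.99 CPM after SHP099. The highest mutant library stayed below the lowest WT library. Ermap fell by 1.97 ± 0.36 (adjusted p = 0.0034), to 25.6% of the WT level. The calls of Rhd and Ermap held in every fit that left out 1 library.

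The rest of the red cell membrane was lower in the same comparison. Of 16 listed genes for skeleton and membrane proteins 15 were tested, and 14 were lower and none higher in mutant vehicle cells, with a median log2 fold change of -1.53. The spectrin gene Sptb fell by 1.32 ± 0.20 (adjusted p = 0.0014), from 72.9 ± 13.7 to 29.3 ± 7.43 CPM. Icam4, a red cell adhesion protein gene, fell by 0.91 ± 0.18 (adjusted p = 0.0054). Gypc, a glycophorin gene also expressed outside the lineage, fell by 0.27 ± 0.05 (adjusted p = 0.0035). Xk, which encodes the partner of the Kell protein, was the 1 tested gene not called (log2 fold change -0.18 ± 0.08, adjusted p = 0.089).

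Car1 (chr3:14766216-14808368, minus strand) and Car2 (chr3:14886273-14900770, plus strand) encode cytosolic carbonic anhydrases, which convert carbon dioxide to bicarbonate for export through band 3. Car2 was measured at 162, 185 and 276 CPM in WT libraries, 77.2, 95.7 and 49.6 CPM in mutant vehicle libraries, and 83.8, 118 and 61.8 CPM after SHP099. Car1 was at 15.1, 20.3 and 34.8 CPM in WT libraries, 7.81, 11.5 and 4.27 CPM in mutant vehicle libraries, and 7.04, 12.3 and 4.34 CPM after SHP099. For both genes the groups did not overlap, with all 6 mutant libraries below the WT ones. Car2 fell by 1.48 ± 0.29 (adjusted p = 0.005) and Car1 by 1.57 ± 0.44 (adjusted p = 0.023), to 35.7% and 33.5% of the WT levels. The Car2 call held in every fit that left out 1 library, whereas Car1 was not called without WT replicate 3, mutant vehicle replicate 1 or mutant vehicle replicate 3 (log2 fold changes of -1.19, -1.57 and -1.29; adjusted p of 0.084, 0.062 and 0.071 in edgeR).

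Both genes lie in a cluster on chromosome 3 of GRCm38 in the order Car13, Car1, Car3 and Car2. Car13 (chr3:14641727-14663002) averaged 8.10 ± 0.333 CPM (WT) and 8.35 ± 0.269 CPM (mutant vehicle; log2 fold change 0.04, adjusted p = 0.71). Car3, between Car1 and Car2, was at 0.194 ± 0.144 and 0.353 ± 0.183 CPM (adjusted p = 0.28). Of the 9 tested carbonic anhydrase genes besides Car1 and Car2, 1 was higher and 1 lower, with a median of -0.11. Their called share lay below the 31.6% of all tested genes. Car12, a membrane-bound form, rose by 0.67 ± 0.10 (adjusted p = 0.0015). Car8, which lacks enzyme activity, was called lower (log2 fold change -1.05 ± 0.30, adjusted p = 0.026), a call lost in 4 of the fits that left out 1 library, where its adjusted p reached 0.092.

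Tfrc (chr16:32608920-32632794, plus strand) encodes transferrin receptor 1, the route of iron entry into dividing cells as well as red cell precursors. It was at 577, 548 and 581 CPM in WT libraries, 677, 619 and 682 CPM in mutant vehicle libraries, and 582, 599 and 569 CPM after SHP099. The mutant vehicle libraries lay above both other groups, which overlapped each other. Tfrc rose by 0.21 ± 0.05 in mutant vehicle cells (adjusted p = 0.0092), to 116% of the WT level. The adjusted p was 0.05 without WT replicate 2 and 0.051 without mutant vehicle replicate 3, and with a trend on transcript length and GC content removed per library the log2 fold change was 0.08 (adjusted p = 0.2).

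Other genes of iron handling moved less than the membrane genes. Of 16 listed genes 1 was higher and 3 lower, with a median of -0.06. Their called share lay below the 31.6% of all tested genes. Slc40a1, the iron exporter ferroportin, fell by 0.61 ± 0.11 (adjusted p = 0.0035), from 142 ± 11.5 to 93.4 ± 10.8 CPM, and kept that call in every fit that left out 1 library. Ireb2, which encodes iron regulatory protein 2, a stabiliser of Tfrc RNA, was called higher (log2 fold change 0.17 ± 0.04, adjusted p = 0.018), but with the trend on length and GC content removed it was at 0.02 (adjusted p = 0.75). The ferritin genes Fth1 (log2 fold change -0.04 ± 0.12, adjusted p = 0.85) and Ftl1 (-0.10 ± 0.08, adjusted p = 0.36) were not called. The calls of Ireb2, of the iron reductase gene Steap3 and of Glrx5, an iron-sulfur cluster gene, were each lost in 3 or 4 of the fits that left out 1 library, and without WT replicate 3, mutant vehicle replicate 1 or mutant vehicle replicate 3 only 1 gene of the list was called lower.

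Erythroid transcription factors were lower with the members. Of the 8 listed, 7 were lower and none higher, with a median of -0.63. Klf1 fell by 1.76 ± 0.33 (adjusted p = 0.004), from 31.4 ± 9.43 to 9.22 ± 3.74 CPM. Gata1 fell by 1.0 ± 0.12 (adjusted p = 0.0006), from 86.6 ± 13.3 to 43.3 ± 5.50 CPM. Its cofactor gene Zfpm1 fell by 1.05 ± 0.19 (adjusted p = 0.0031) and Gfi1b, a repressor gene shared by the erythroid and megakaryocyte lineages, by 0.91 ± 0.11 (adjusted p = 0.00057). Lmo2, also used by stem and progenitor cells, was at a log2 fold change of 0.03 ± 0.05 (adjusted p = 0.67).

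**Figure D2:**
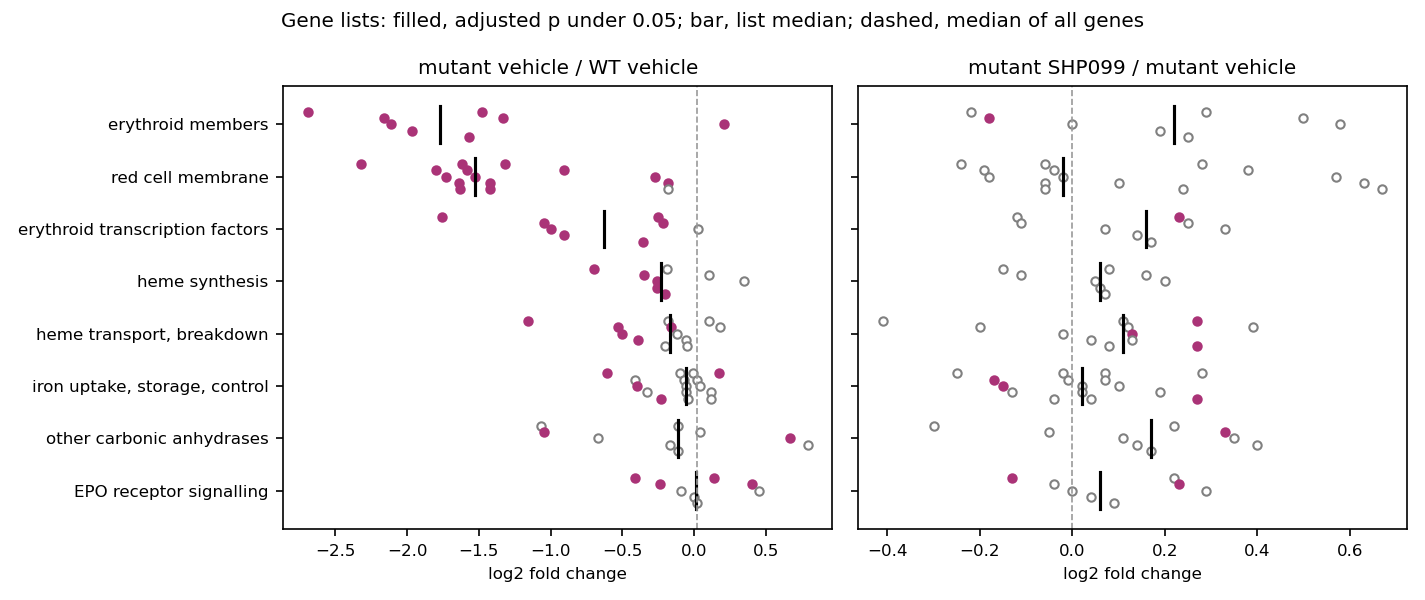
Each point is the log2 fold change of 1 tested gene on the x axis, by gene list, for mutant vehicle against WT vehicle cells on the left and SHP099 against vehicle in mutant cells on the right, on axes of different range. Filled points have an adjusted p under 0.05 in the edgeR model without pairing. Bars are list medians, and the dashed line is the median of all tested genes. In this model 14 red cell membrane genes are filled and below 0 on the left and none is filled on the right.

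Markers of other cell types moved in the same comparison, not all in 1 direction. Over all tested genes 16.9% were called higher and 14.7% lower. All 10 megakaryocyte markers were lower in mutant vehicle cells; their summed level was 3012 to 3792 CPM in WT libraries and 1359 to 1859 CPM in mutant vehicle libraries. Of 10 mast cell and basophil markers 8 were lower (2481 to 2795 against 1279 to 1856 CPM), as were 6 of 9 neutrophil markers, with 1 higher (24047 to 30485 against 17584 to 18642 CPM). Summed over 10 erythroid markers, 6 of them tested and all 6 lower, the level was 69.7 to 147 CPM in WT libraries and 21.4 to 41.2 CPM in mutant vehicle libraries; this list shares genes with the membrane list, Rhag and the gene of protein 4.2 among them, and Klf1 with the transcription factors. The remaining 4 erythroid markers, the adult globin genes, were at 0. Of 10 monocyte and macrophage markers 9 were tested, with 3 called higher and 1 lower. Their sum was 1047 to 1345 CPM in WT libraries and 1303 to 1593 CPM in mutant vehicle libraries, ranges that overlap. These calls were each lost in 2 to 6 of the fits that left out 1 library. How far these other cell types bear on the members was not tested.

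The globin genes could not be read from this table. Of 9 globin symbols, 6 were listed at 0 in every library, among 341449464 counts in all, and these 6 are the adult alpha and beta globin genes Hba-a1, Hba-a2, Hbb-bs, Hbb-bt, Hbb-b1 and Hbb-b2. Such near-identical or overlapping copies can lose their reads in counting, and the setting for reads with several matches is not given in the sources used here, so no level is stated. The embryonic gene Hbb-y had 76 counts over the 9 libraries, Hbb-bh1 had 5 and Hba-x had 2, and none was tested.

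Compared per kilobase of transcript, the members differed widely in level within each group. In WT vehicle cells the mean levels were 116 CPM per kb for Tfrc and 116 for Car2, then 19.6 for Car1, 14.6 for Epor, 13.9 for Ermap, 8.09 for Rhd, 2.59 for Slc4a1 and 1.14 for Alas2. Tfrc and Car2 did not differ beyond their spread (SD 3.67 and 33.7), nor did Car1, Epor and Ermap (SD 8.53, 3.45 and 4.53). In mutant vehicle cells Tfrc, at 135 ± 7.13 CPM per kb, stood above Car2 at 41.5 ± 13 without overlap between libraries. Next came Car1 at 6.57 ± 3.02 and Epor at 5.78 ± 1.74, which overlapped, and Alas2 remained last at 0.263 ± 0.144. Using the union of exons as the length instead placed Tfrc before Car2 in WT cells (91.9 against 85.7 CPM per kb) and left the places of the other members there as they were.

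Ratios between members moved less than their levels for the carbonic anhydrases. Car2 exceeded Car1 per kilobase by 5.29 to 7.13 times in WT, 5.57 to 7.77 times in mutant vehicle and 6.43 to 9.51 times in SHP099 libraries. Ermap exceeded Rhd by 1.59 to 2.15 times in WT, 1.80 to 2.30 times in mutant vehicle and 1.28 to 1.55 times in SHP099 libraries, so the SHP099 range lay below both others. Epor exceeded Slc4a1 by 4.41 to 13.6 times in WT and 10.1 to 36.5 times in mutant vehicle libraries, ranges that overlap.

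In mutant cells after 24 h of SHP099, Tfrc was the only member called in the model without pairing. That model leaves differences between cultures in the error. With pairing, described further below, 4 members were called higher and 2 lower. That paired fit called 21.5% of all its genes higher and 21.3% lower. The SE of Car2 was 0.04 with pairing against 0.29 without it. Without pairing, Tfrc fell by 0.18 ± 0.05 on the log2 scale (adjusted p = 0.027), from 659 ± 34.9 to 583 ± 14.9 CPM (SD, n = 3 per group). The groups did not overlap. The other 7 members were not called, with log2 fold changes of 0.19 ± 0.23 for Epor, 0.58 ± 0.65 for Alas2, 0.00 ± 0.45 for Car1, 0.25 ± 0.29 for Car2, 0.50 ± 0.76 for Slc4a1, -0.22 ± 0.36 for Ermap and 0.29 ± 0.40 for Rhd, and adjusted p of 0.57 to 1. Their SHP099 and vehicle libraries overlapped. Over all tested genes 21.8% were called without pairing, 8.81% higher and 13% lower.

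The Tfrc decrease was small, and its call was lost in 5 of the 9 fits that left out 1 library: without mutant vehicle replicate 1 or 3, or without any 1 of the SHP099 libraries, the log2 fold change lay between -0.21 and -0.14 with an adjusted p of up to 0.12. With the trend on length and GC content removed it was -0.08 (adjusted p = 0.25).

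Mutant libraries that share a number deviated together across genes, and the number is taken here as the culture. Within these pairs, Epor, Alas2, Car2, Slc4a1 and Rhd were higher after SHP099 in 3 of 3 pairs. Tfrc and Ermap were lower in 3 of 3 pairs, and Car1 was higher in 2 and lower in 1. How many of all tested genes kept the same direction in 3 of 3 pairs was not counted. For Car2 the SHP099 to vehicle ratios were 1.08, 1.24 and 1.25 in cultures 1 to 3. For Slc4a1 they were 1.66, 1.53 and 1.13, and for Alas2 1.78, 1.49 and 1.49. Ermap had ratios of 0.737, 0.991 and 0.825 and Tfrc 0.859, 0.966 and 0.834, so culture 2 showed the least decrease of both.

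With the culture number as a block in a fit of the 6 mutant libraries alone, 6 members were called, 4 higher and 2 lower. Of 13004 genes in that fit 42.8% were called, 21.5% higher and 21.3% lower. Car2 was higher by 0.25 ± 0.04 (adjusted p = 4.4e-05), Slc4a1 by 0.53 ± 0.16 (adjusted p = 0.007), Epor by 0.21 ± 0.08 (adjusted p = 0.038) and Alas2 by 0.62 ± 0.25 (adjusted p = 0.042). Tfrc fell by 0.18 ± 0.05 (adjusted p = 0.0022) and Ermap by 0.23 ± 0.07 (adjusted p = 0.014). Rhd, at 0.29 ± 0.13 (adjusted p = 0.067), and Car1, at 0.00 ± 0.09 (adjusted p = 0.99), were not called.

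These paired calls were not all stable. With the length and GC trend also removed, Car2 (0.17 ± 0.04, adjusted p = 0.0061) and Slc4a1 (0.59 ± 0.15, adjusted p = 0.0055) were still called and the other 6 members were not. Leaving out culture 1, 2 or 3 from the paired fit gave 5, 4 and 3 called members, and Car2 was higher in each, by 0.31, 0.21 and 0.22. Slc4a1 was called without culture 1 or 3 but not without culture 2. Even so, the rise left Car2 at 88.0 ± 28.5 CPM after SHP099, against 208 ± 60.2 CPM in WT cells.

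Without the block, SHP099 gave calls in heme transport and breakdown for 3 of 12 genes, all higher, and in iron handling for 3 of 16, 1 higher and 2 lower. Both shares lay near the 21.8% called over all tested genes. In heme synthesis (8 genes) and the red cell membrane (15 genes) none was called. The heme and porphyrin transport gene Tmem14c rose by 0.27 ± 0.06 (adjusted p = 0.015) and the biliverdin reductase gene Blvra by 0.27 ± 0.05 (adjusted p = 0.0042). The transcription factor gene Nfe2 rose by 0.23 ± 0.05 (adjusted p = 0.012). Ireb2 was called lower (log2 fold change -0.17 ± 0.04, adjusted p = 0.023) and the ferritin light chain gene Ftl1 higher (0.27 ± 0.08, adjusted p = 0.039), both calls lost in 5 of the fits that left out 1 library; the Tmem14c call was lost without SHP099 replicate 3 (adjusted p = 0.052). With the length and GC trend removed, Tmem14c was at 0.12 (adjusted p = 0.12), Ftl1 at 0.17 (adjusted p = 0.18) and Ireb2 at -0.03 (adjusted p = 0.52), none of them called, while Blvra at 0.15 (adjusted p = 0.048) and Nfe2 at 0.16 (adjusted p = 0.043) still were.

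With the block on the 6 mutant libraries, where 21.5% of all genes were called higher and 21.3% lower, 5 of 15 membrane genes were higher and 2 lower. Of 8 transcription factors 4 were higher and 2 lower, and of 12 genes of heme transport and breakdown 6 were higher and 1 lower. Heme synthesis had 2 of 8 higher and 1 lower, iron handling 3 of 16 higher and 2 lower, and the erythropoietin receptor list 3 of 8 higher and 1 lower. The called shares of the membrane, heme synthesis, iron and receptor lists, both directions together, thus lay near or below the 42.8% of all genes. In that fit Gata1 was higher by 0.33 ± 0.05 (adjusted p = 1.9e-06), Aqp1, a water channel gene of the red cell membrane, by 0.29 ± 0.06 (adjusted p = 0.00029), Blvrb by 0.41 ± 0.06 (adjusted p = 1.1e-06) and Slc40a1 by 0.28 ± 0.04 (adjusted p = 4e-06). Klf1 was at 0.19 ± 0.08 (adjusted p = 0.059). Summed megakaryocyte markers were at 1673 to 2233 CPM after SHP099 against 1359 to 1859 CPM with vehicle, summed mast cell and basophil markers at 1828 to 2437 against 1279 to 1856 CPM, and summed neutrophil markers at 25439 to 30401 against 17584 to 18642 CPM. Summed monocyte and macrophage markers were at 1872 to 2055 CPM after SHP099 against 1303 to 1593 CPM with vehicle. The part of these cell types in the members' differences was not tested here.

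**Figure D3:**
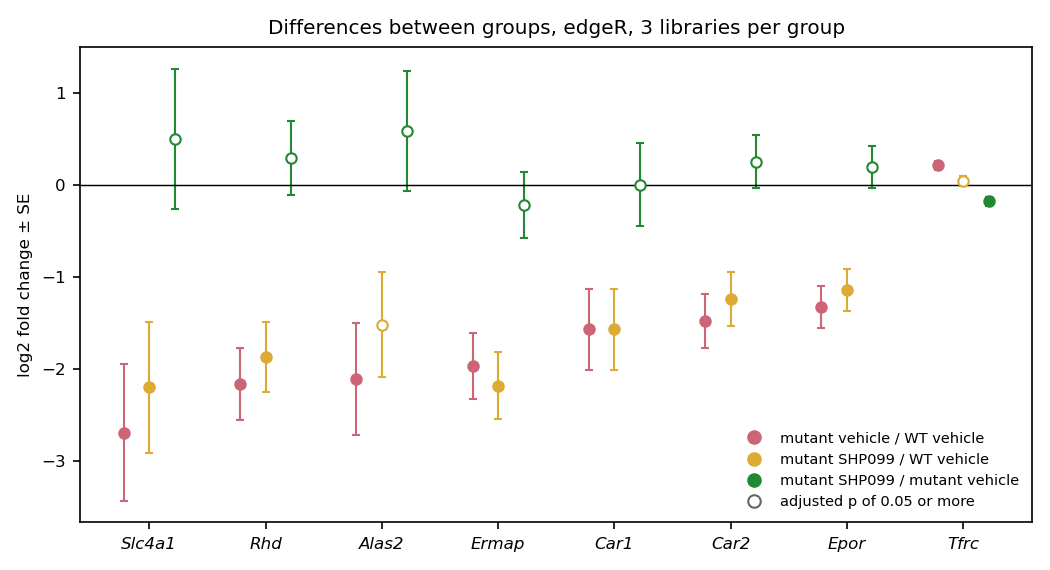
The log2 fold change of each member is plotted with its SE for the 3 comparisons, from 3 libraries per group in the edgeR model without pairing; open points have an adjusted p of 0.05 or more. The 7 members other than Tfrc lie below -1 in both comparisons with WT cells, and their SHP099 against vehicle points are all open and between -0.22 and 0.58.

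SHP099-treated mutant cells were also set against WT vehicle cells. This comparison shares its WT libraries with the genotype comparison and its SHP099 libraries with the treatment comparison, so the 3 are not independent, and the SHP099 cells differ from the WT cells in genotype and treatment at once. Of the 8 members 6 were lower and none higher; over all tested genes 31.7% were called, 15.4% higher and 16.3% lower. Each value below stands beside that of mutant vehicle cells. Ermap was at -2.18 ± 0.36 (adjusted p = 0.0024) after SHP099 and -1.97 with vehicle. Rhd was at -1.87 ± 0.38 (adjusted p = 0.0063) and -2.16, and Car1 at -1.57 ± 0.44 (adjusted p = 0.023) and -1.57.

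Car2 was at -1.24 ± 0.29 (adjusted p = 0.011) after SHP099 and -1.48 with vehicle, and Epor at -1.14 ± 0.23 (adjusted p = 0.0054) and -1.33. Slc4a1 was at -2.20 ± 0.71 (adjusted p = 0.04) and -2.69, although SHP099 replicate 2 overlapped with the WT libraries. With the length and GC trend removed Slc4a1 was at -2.11 and not called (adjusted p = 0.057), which left 5 called members, and without SHP099 replicate 2 it was at -3.26 (adjusted p = 0.016). Alas2 was at -1.52 ± 0.57 and not called (adjusted p = 0.069); it was called without WT replicate 2 and by DESeq2, with adjusted p of 0.026 and 0.034. In the other fits it was not called; leaving out 1 library moved it between -1.99 and -0.75, with an adjusted p of up to 0.33, and with the length and GC trend removed its adjusted p was 0.08. Tfrc was at 0.04 ± 0.05 (adjusted p = 0.6), from 569 ± 17.9 CPM in WT to 583 ± 14.9 CPM in SHP099-treated mutant cells. The calls of Epor, Car2, Ermap and Rhd held in every fit that left out 1 library. Car1 was not called in 3 of those fits and Slc4a1 in 4, without WT replicate 3, SHP099 replicate 1 or SHP099 replicate 3 for both and also without WT replicate 1 for Slc4a1, with adjusted p of up to 0.086 and 0.14.

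Within each group the same libraries carried the high values of most members. WT replicate 3 was the highest WT library for 8 of 8 members, mutant vehicle replicate 2 was the highest of its group for 7, all but Tfrc, and SHP099 replicate 2 for 8. How many of all tested genes have the same highest libraries was not counted. The lowest library differed by gene. Alas2, Slc4a1 and Rhd were lowest in WT replicate 2, and Alas2 and Slc4a1 were lowest in replicate 1 of both mutant groups, whereas Epor, Car1, Car2, Ermap and Rhd were lowest in replicate 3 of both mutant groups. The highest library exceeded the lowest of its group by 5.38 times for Alas2 and 4.10 times for Slc4a1 in WT cells, but by 1.06 times for Tfrc.

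After the group means were removed, the log2 levels of the 21 pairs of members without Tfrc correlated at 0.49 to 1.0 over the 9 libraries (Pearson r, median 0.82). The closest were Car1 and Car2 at 1.0, Car2 and Ermap at 0.97, and Alas2 and Slc4a1 at 0.93. Alas2 with Ermap at 0.49 and Slc4a1 with Ermap at 0.54 were the least alike. For the 7 pairs with Tfrc the values ran from -0.33 to 0.12. These are descriptions of 9 points that share their library for all genes and, for the mutant cells, their culture, and no test was made.

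**Figure D4:**
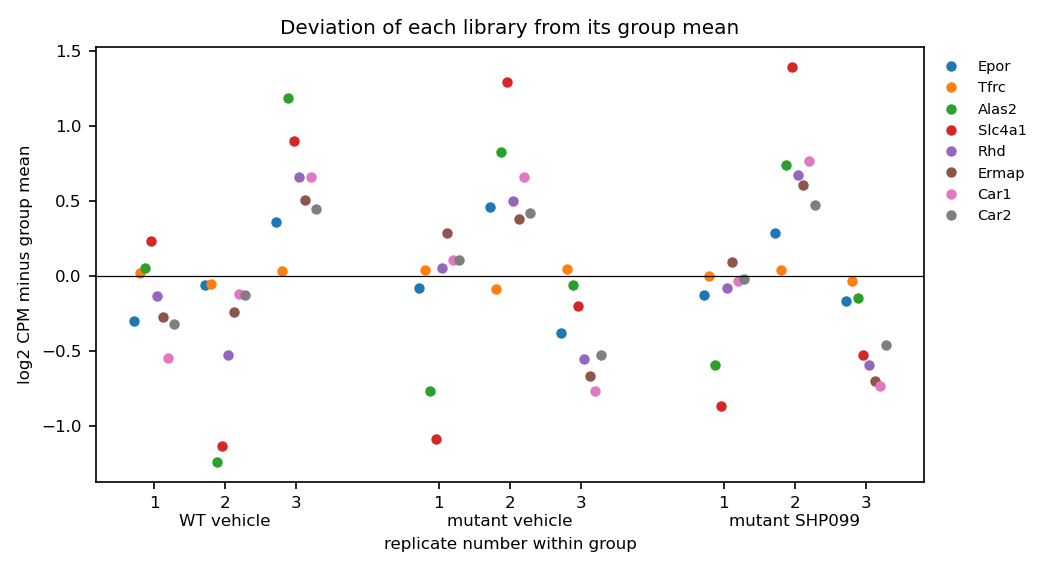
The y axis gives the log2 CPM of each member minus its group mean, for each of the 9 libraries, which are placed by replicate number within group on the x axis; colours mark the genes. In WT replicate 3 and in replicate 2 of both mutant groups the 7 members other than Tfrc lie above 0, and Alas2 and Slc4a1 lie lowest in WT replicate 2 and in replicate 1 of both mutant groups.

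Over the 9 libraries, group differences included, the 3 genes outside the membership with log2 levels most like those of each member were a mixed set. For Car1 they were Add2 (Pearson r = 0.996), Pklr and Ank1, which encode a membrane skeleton protein, the red cell and liver pyruvate kinase, and ankyrin 1. For Car2 they were Klf1 (r = 0.996), Stard10 and Cldn13, for Epor Zfpm1 (r = 0.993), Diras2 and Pcyt1b, for Rhd Gstm5 (r = 0.991), Hemgn and Cldn13, and for Ermap Bcl11a (r = 0.994), Slc25a21 and Igsf3. For Slc4a1 they were Dmtn, a membrane skeleton gene (r = 0.983), Tceanc2 and Armcx6. For Alas2 they were Itgb1, a broadly expressed integrin gene (r = 0.975), Dmtn (r = 0.960) and Actb, the cytoplasmic beta actin gene. Tfrc was most like Haus6, a spindle gene (r = 0.977), Sf3b1, a splicing factor gene (r = 0.961), and Jag1, a Notch ligand gene. These values describe 9 points that share their library for all genes.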

How the data were processed

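RNA of 9 mouse cultures, 3 per group, was made into TruSeq stranded mRNA libraries, per the labels' protocols. The authors deposited 1 table of raw counts per gene symbol; the submitters' processing notes name FastQC, STAR, Subread, featureCounts and mm10, with no version. The gene annotation and strand option of counting: not given in the sources used here. One column differs from its sample title in the last character and was matched as the sole SHP099 sample of number 3.

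From these counts, edgeR 4.0.16 in R 4.3.3 kept 13270 genes (filterByExpr, minimum count 10), left out 11151, scaled libraries by TMM and fitted 1 quasi-likelihood model to all 9 libraries with a mean per group. Tests were two-sided, with Benjamini-Hochberg adjustment over all tested genes and a threshold of 0.05. Levels are CPM as mean ± SD. Errors of log2 fold changes are SE, derived as the absolute log2 fold change over the square root of the quasi-likelihood F statistic. Per-kilobase levels use the longest coding transcript of GENCODE M21 (GRCm38). The scripts were tested on simulated data. Replicate libraries all differed by more than sampling noise.

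The members and lists were chosen with earlier results of these data known. Genes named are the members, Hba-a1, Hbb-bs, Gata1, Klf1, Tet2, up to 4 called genes of smallest p per list, and up to 3 genes of highest correlation per member; others are named to complete a list and were chosen after their values were seen. Values of some listed genes are not reported here.

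Replicate numbers come from the titles. Over genes, a mutant vehicle library and the SHP099 library sharing its number deviated from their group means with correlations of 0.543, 0.596 and 0.561. Libraries not sharing a number gave -0.359 to -0.227. Such negative values follow from the positive ones, because deviations from a group mean cancel within the group. The number was used to pair mutant libraries because those sharing it correlated positively. WT and mutant libraries of the same number were at -0.135 to -0.0721 and share only a number. The paired fit of the 6 mutant libraries was chosen after seeing the data. Alternatives were RLE scaling, DESeq2 1.42.0, other filters, each library left out, the 2 compared groups alone, the replicate block, and a lowess trend (span 0.3) on transcript length and GC content removed per library.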

Additional observations from a re-analysis of the deposited data

How the results depend on the processing

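In mutant against WT vehicle cells, between 4 and 8 members were called when 1 library was left out (8 with all). No member changed direction there or in SHP099-treated against WT cells, and with RLE scaling, DESeq2, other filters or the 2 groups alone the call of Alas2 against WT in SHP099-treated cells by DESeq2 was the sole call to change. For SHP099 against vehicle, 0 to 5 members were called when a library or culture was left out (1 with all), 0 with the length and GC trend removed, 0 with that and the replicate block on all 9 libraries, 6 with the block on the 6 mutant libraries and 2 with the trend also removed. All called genes numbered 1767 (without SHP099 replicate 3) to 2976 when a library was left out (2890 with all), 5563 with the block on the 6 mutant libraries, 5235 with the trend also removed, and 5085, 4892 and 3850 with the block but without culture 1, 2 or 3. Car1, near 0 there, was at -0.0012 with the replicate block on all 9 libraries, -0.10 with the trend removed, -0.11 with the trend and either block, and -0.08 and -0.01 in the paired fit without culture 2 or 3. When a library or culture was left out, Car1 ranged from -0.45 to 0.41, Car2 from -0.01 to 0.49, Slc4a1 from -0.55 to 1.44, Ermap from -0.54 to 0.06 and Rhd from -0.10 to 0.60, so their directions without pairing rest on which libraries enter. Alas2 and Slc4a1 had 9 to 177 and 21 to 786 counts per library, which limits their precision.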
